A study of Mus musculus with 11 samples.

Results

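Coagulation and fibrinolysis genes of mouse pancreas and epididymal adipose tissue are described here, across control mice and mice with obesity-related alcohol-induced acute pancreatitis (OA-AP). The genes are F3, Tfpi, Thbd, Plau, Plaur, Plat, Thbs1, Vwf and F13a1, chosen by gene name, and all 9 were found with 1 gene identifier each among the 55350 genes listed in the 2 count tables. Wild type C57BL/6 mice aged 16 weeks were used, described in the study's methods as male C57BL/6J. OA-AP mice (condition labelled Model) were kept on high-fat food over 12 weeks and then had 2 intraperitoneal injections of ethanol at 2 g/kg, spaced by 1 h. Control mice ate chow for the same 12 weeks and received saline. Tissue was taken 12 h after the first injection. Diet, ethanol and pancreatitis differ together between the groups, so their contributions cannot be told apart. The pancreas gave 2 control and 3 OA-AP libraries, and the adipose tissue gave 3 of each. The labels do not say which libraries came from the same mouse, and p-values measure the spread between these libraries.

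Blood clotting starts when tissue factor, encoded by F3, meets plasma factor VII, and tissue factor pathway inhibitor, encoded by Tfpi, blocks that step. Thrombin forms fibrin, thrombomodulin on endothelium turns thrombin towards the anticoagulant protein C, and factor XIII crosslinks the fibrin. Plasmin dissolves the clot after urokinase (Plau) or tissue plasminogen activator (Plat) releases it from plasminogen. Microvascular clotting is a known feature of acute pancreatitis.

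Total counts were 14188832 to 17238919 per pancreas library and 20825177 to 27928097 per adipose library. Levels are given as normalized CPM, a gene's share of the library's counts after scaling by the trimmed mean of M-values (TMM), and 1 count was worth 0.0523 to 0.0997 CPM in the pancreas. A gene was called when the edgeR quasi-likelihood test gave a Benjamini-Hochberg adjusted p under 0.05 over all genes tested, with the fold change at 1.5 or more. The labelled tissues carried their defining markers: 16 acinar genes took 57.9% and 59.9% of counts in control pancreas and 44.6% to 47.7% in OA-AP, and all 8 adipocyte markers were tested in adipose tissue. Adipose control library 2 stood apart, with 0.731% of its counts on the acinar genes against at most 0.00172% in the other adipose libraries. With TMM scaling 12 of the 16 acinar genes fell in OA-AP pancreas and none rose, and their sum went from 731671 and 858282 CPM in the controls to between 338996 and 429876 CPM in OA-AP, beside every pancreas change described here. The part of this in those changes was not tested. Pancreas OA-AP library 3 also stood apart, with a sum of 12 neutrophil markers of 111 CPM against 2.06 to 16.0 CPM in the other pancreas libraries. In bulk tissue, fewer cells of a type and less RNA per cell cannot be told apart.

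All 9 genes are protein coding, and their starts and ends in GRCm38 were the same in the GENCODE M21 annotation. Promoter sequences, meaning the 250 bases before an annotated start in RefSeq (GRCm38.p6), were held for 4 of the 9 genes (F3, Tfpi, Plaur and F13a1). The letters TGANTCA are a broad pattern that includes the AP-1 sites TGACTCA and TGAGTCA, and the pattern reads the same on both strands. They were found before F3 and Plaur and were not found in the windows of F13a1 and Tfpi. The windows of F3, Plaur and F13a1 (at its outer start) are shown, with AP-1 letters in capitals, because these are the members called in adipose tissue.
F3, chr3:121723287-121723536, plus strand: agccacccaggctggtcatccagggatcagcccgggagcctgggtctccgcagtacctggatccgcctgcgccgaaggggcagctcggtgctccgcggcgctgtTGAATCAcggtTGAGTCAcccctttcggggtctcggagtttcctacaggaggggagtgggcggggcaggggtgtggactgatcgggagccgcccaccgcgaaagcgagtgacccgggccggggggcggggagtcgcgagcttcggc
Plaur, chr7:24462233-24462482, plus strand: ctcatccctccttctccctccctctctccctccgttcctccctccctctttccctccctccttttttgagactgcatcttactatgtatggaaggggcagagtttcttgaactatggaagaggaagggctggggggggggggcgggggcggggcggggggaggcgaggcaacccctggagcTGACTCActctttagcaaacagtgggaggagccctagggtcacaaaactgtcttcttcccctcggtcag
F13a1, chr13:37050245-37050494, minus strand: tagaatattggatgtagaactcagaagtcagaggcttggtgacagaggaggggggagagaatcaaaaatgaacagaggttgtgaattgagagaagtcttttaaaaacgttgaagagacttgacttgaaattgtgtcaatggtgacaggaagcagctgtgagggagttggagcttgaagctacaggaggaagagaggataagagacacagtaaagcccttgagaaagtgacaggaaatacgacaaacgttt
In F3 the matches TGAATCA and TGAGTCA begin 146 and 135 bases before the start, and in Plaur the match TGACTCA begins 69 bases before it. TGANTCA occurs in 6.75% of 32841 RefSeq promoters of this length and in at least 1 promoter of 7.82% of 27018 genes. Among the other clotting genes described below, 12 of 48 with a promoter in the table held it, a share that was not tested. Among them were Procr (TGACTCA at 154 bases), Anxa2 (TGAGTCA), Serpinb2, Tfpi2 and Ppbp (TGAATCA) and Selp (TGATTCA). The GC box GGGCGG, searched on both strands, was also found in the windows of F3, Plaur and Tfpi, none of its matches overlapping the AP-1 letters, against 32.7% of all promoters. Searched the same way, TATAAA was found in 1 of the 4 members, Tfpi, against 12.4% of all promoters. The letters of NF-kB (GGGRNWYYCC) and CRE (TGACGTCA) were found in 0 of the 4, against 3.9% and 1.55%. A match describes letters only, and no binding was measured.

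In the pancreas, 2 of the 9 genes were called, Plaur and Thbs1, both higher in OA-AP. Of all 12884 genes tested there, 29.8% were called, 16.2% higher and 13.5% lower. In adipose tissue 3 of the 9 were called, with Plaur and F13a1 higher and F3 lower, against 25.1% of 15839 genes tested, of which 12.1% were higher and 13% lower. These shares are near the background of each tissue. Plaur was the 1 gene called in both, though in the pancreas it passed the filter on low counts through the OA-AP libraries alone and could only be called as a rise. The median log2 fold change of the 9 was 0.14 in the pancreas and 0.14 in adipose tissue, where all tested genes had medians of 0.04 and -0.01.

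**Figure D1:**
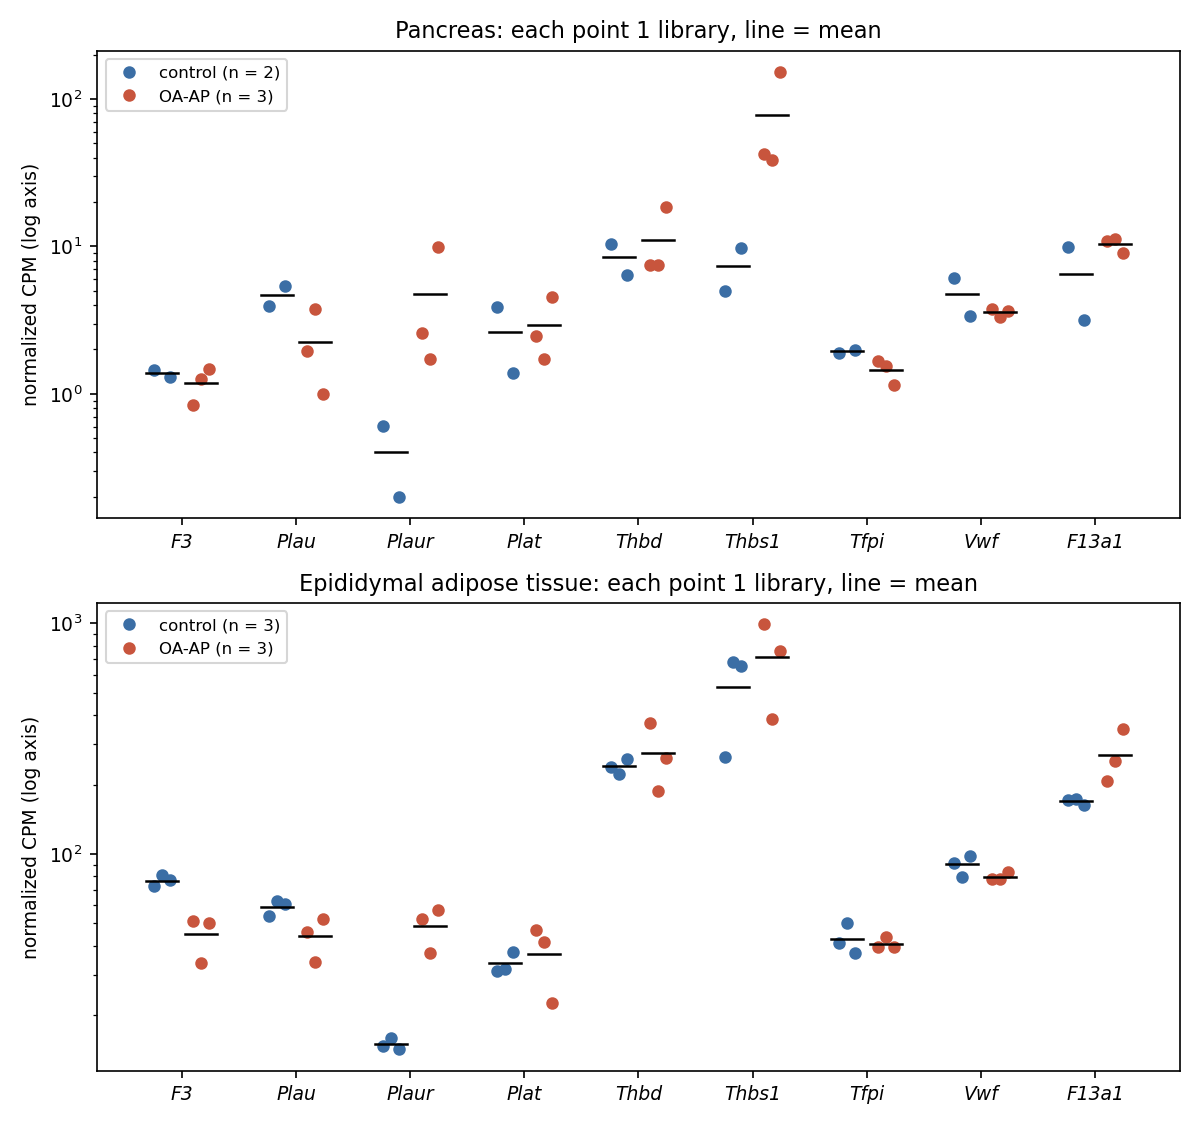
Normalized CPM on a log axis of each gene in every library of the pancreas (top) and adipose tissue (bottom), with blue points for controls, red points for OA-AP and a black line for each mean. Thbs1 and Plaur lie apart between groups in the pancreas, whereas F3 lies lower and Plaur and F13a1 higher in OA-AP in adipose tissue.

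All 9 genes stood higher in control adipose tissue than in control pancreas. Per kilobase of the gene's length, control pancreas held 0.153 to 2.26 CPM of each member and control adipose tissue 5.38 to 87.3 CPM. The 2 tables were scaled separately, and acinar transcripts fill a large share of the pancreas reads, so levels across tissues are given without a test. In control pancreas, Thbd (2.26 ± 0.776 CPM per kilobase, SD, n = 2) and Plau (1.97 ± 0.429) led, followed by Thbs1 (1.21 ± 0.558) and F13a1 (0.969 ± 0.701), and neighbours in this order lay within their spread except Plau and Thbs1, whose libraries did not overlap. In control adipose tissue Thbs1 (87.3 ± 38.3 CPM per kilobase, SD, n = 3) and Thbd (64.4 ± 4.69) led and were within their spread, F3 (30.4 ± 1.64) came next, and F13a1 (25.2 ± 0.889) and Plau (25.0 ± 1.89) were level. Plaur was lowest in control pancreas, at 0.153 ± 0.108 CPM per kilobase. In adipose tissue of OA-AP mice Plaur (18.7 ± 3.99 CPM per kilobase, SD, n = 3) stood beside Plau (18.6 ± 3.93) and F3 (17.9 ± 3.88), with differences far below their spread.

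The initiator of clotting and its inhibitor were examined first. F3, at chr3:121723537-121735048 on the plus strand, encodes tissue factor. In adipose tissue it was at 72.5, 80.8 and 76.9 CPM in the controls and at 51.2, 33.8 and 50.4 CPM in OA-AP. Every OA-AP library lay below every control, and F3 fell by 0.77 on the log2 scale (SE 0.16, edgeR adjusted p = 0.0106), a level 1.70-fold lower. The adipose groups of 4 of the 9 genes did not overlap, against 52.4% of all tested genes (26.4% higher and 26.0% lower). In the pancreas F3 was at 1.46 and 1.30 CPM in the controls and 0.840, 1.26 and 1.46 CPM in OA-AP, from 13 to 28 counts per library. These groups overlapped, with a log2 fold change of -0.22 (SE 0.43, adjusted p = 0.727).

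Tfpi, at chr2:84432855-84476775 on the minus strand, encodes the inhibitor that tissue factor meets on endothelium. In adipose tissue its levels were 41.0, 50.0 and 37.2 CPM in the controls and 39.7, 43.6 and 39.4 CPM in OA-AP, with OA-AP libraries inside the control range (log2 fold change -0.06, SE 0.12, adjusted p = 0.714). In the pancreas the controls were at 1.89 and 1.99 CPM and OA-AP at 1.68, 1.54 and 1.15 CPM. The pancreas groups did not overlap, yet the gene was not called (log2 fold change -0.41, SE 0.37, adjusted p = 0.419). The F3 to Tfpi ratio of counts within a library does not move with library scaling. Its mean log2 value in adipose tissue was 0.85 ± 0.18 (SD, n = 3) in controls and 0.12 ± 0.42 in OA-AP. That difference of -0.74 had an exact permutation p of 0.1, two-sided, which is the smallest that 3 against 3 libraries, or 2 against 3, can give. In the pancreas the ratio differed by 0.17, with overlapping groups (exact permutation p = 0.7).

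Thrombomodulin, encoded by Thbd at chr2:148404466-148408188 on the minus strand, was not called in either tissue. In the pancreas it was at 10.5 and 6.38 CPM in the controls and 7.46, 7.44 and 18.6 CPM in OA-AP, where library 3 alone exceeded both controls. The adipose libraries held 239, 223 and 258 CPM in the controls and 368, 188 and 262 CPM in OA-AP, so the OA-AP libraries spread to both sides of the controls. The log2 fold changes were 0.40 (SE 0.48, adjusted p = 0.559) and 0.19 (SE 0.23, adjusted p = 0.554).

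The plasminogen activation genes showed the change called in both tissues. Plaur, at chr7:24462484-24475968 on the plus strand, encodes the receptor that holds urokinase at the cell surface. Its adipose levels were 14.7, 16.0 and 14.2 CPM in the controls and 52.3, 37.1 and 57.1 CPM in OA-AP, and the lowest OA-AP library lay above 2 times the highest control. Plaur rose 3.26-fold there (log2 1.70, SE 0.17, adjusted p = 0.00076). In the pancreas it was at 0.601 and 0.199 CPM in the controls, from 7 and 2 counts, and at 2.57, 1.72 and 9.99 CPM in OA-AP, from 49, 30 and 191 counts. Plaur passed the filter on low counts there through the OA-AP libraries alone, so it could only be called as a rise. The groups did not overlap, as for 4 of the 9 genes and 62.3% of all tested genes in the pancreas (32.9% higher and 29.4% lower), and Plaur rose by 3.51 on the log2 scale (SE 1.08, adjusted p = 0.0484). This call was lost with DESeq2 size factors (adjusted p = 0.0543) and when either control library was left out. With a lone control a smaller share of all genes was called too. Without OA-AP library 3 the log2 fold change was 2.31 and the call was kept (adjusted p = 0.00385).

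Plau, at chr14:20836660-20843385 on the plus strand, encodes urokinase itself and was not called. In adipose tissue it was at 54.1, 62.5 and 60.9 CPM in the controls and 45.7, 34.1 and 52.5 CPM in OA-AP. In the pancreas it was at 3.95 and 5.38 CPM in the controls and 1.94, 3.78 and 0.994 CPM in OA-AP. In both tissues every OA-AP library lay below every control, with log2 fold changes of -0.42 (SE 0.16, adjusted p = 0.0721) in adipose tissue and -1.06 (SE 0.51, adjusted p = 0.144) in the pancreas. The pancreas value passed the threshold without OA-AP library 2, at -1.66 (adjusted p = 0.0195), and with no filter on low counts, at -0.99 (adjusted p = 0.0324).

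The proportion of receptor to ligand was compared within each library. The log2 ratio of Plaur to Plau counts in adipose tissue was -1.98 ± 0.11 (SD, n = 3) in controls and 0.15 ± 0.04 in OA-AP, that is, 0.254 and 1.11 receptor counts per urokinase count. The difference of 2.12 had the smallest exact permutation p possible, 0.1. In the pancreas the ratio was -3.54 ± 1.28 (SD, n = 2) in controls and 0.86 ± 2.25 (n = 3) in OA-AP, without overlap and with an exact permutation p of 0.2.

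Plat, at chr8:22757727-22782844 on the plus strand, encodes the other plasminogen activator, known from endothelium. It was at 3.86 and 1.40 CPM in control pancreas and 2.47, 1.72 and 4.55 CPM in OA-AP pancreas. Adipose levels were 31.3, 31.7 and 37.7 CPM in the controls and 46.9, 41.5 and 22.7 CPM in OA-AP. The groups overlapped in both tissues, with log2 fold changes of 0.14 (SE 0.54, adjusted p = 0.869) and 0.14 (SE 0.26, adjusted p = 0.69).

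**Figure D2:**
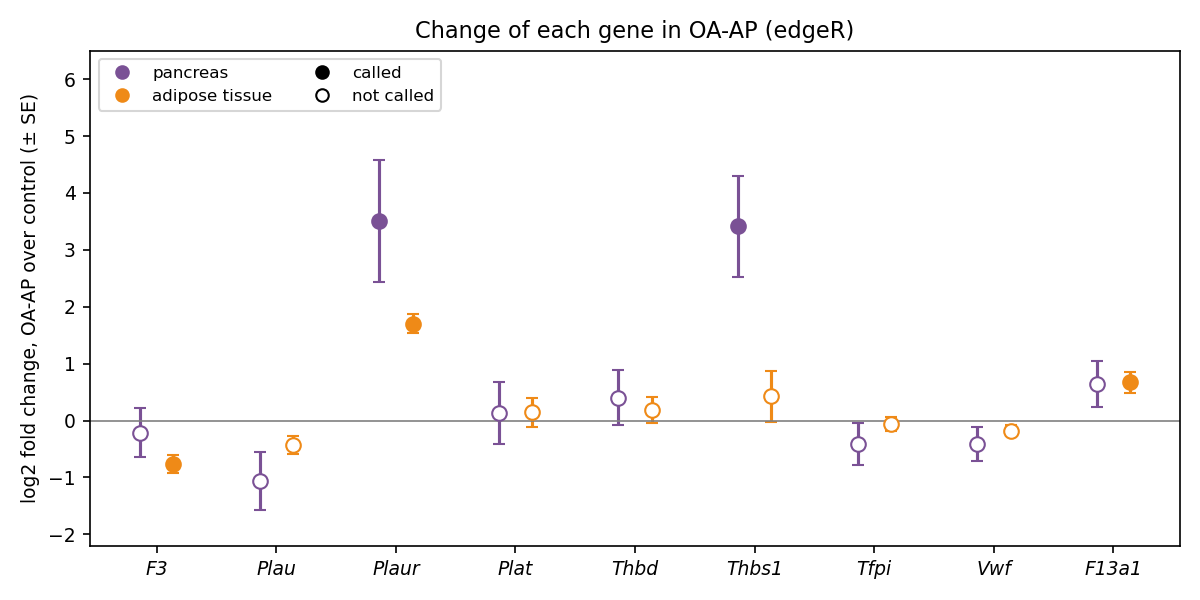
Log2 fold change of each gene in OA-AP over control (points) with its SE (bars) in the pancreas (purple) and adipose tissue (orange), filled where the gene was called. Plaur is filled above 0 in both tissues, Thbs1 in the pancreas and F13a1 in adipose tissue, and F3 is filled below 0 in adipose tissue.

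Thbs1 and Vwf encode large adhesive proteins that platelets store. Thbs1, at chr2:118111876-118127133 on the plus strand, encodes thrombospondin 1. In the pancreas it was at 4.98 and 9.77 CPM in the controls and 42.3, 38.7 and 153 CPM in OA-AP, and Thbs1 rose by 3.41 on the log2 scale (SE 0.89, adjusted p = 0.0447). Each OA-AP library was well above both controls, and OA-AP library 3 was the highest. Without that library the log2 fold change was 2.43 (adjusted p = 1.59e-05). The call was lost without OA-AP library 2 (adjusted p = 0.0528) and with no filter on low counts (0.178). It was also lost when either control library was left out, where a lone control remained and fewer of all genes were called.

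In adipose tissue Thbs1 was at 262, 677 and 652 CPM in the controls and 990, 387 and 761 CPM in OA-AP. The groups overlapped, and the spread within each was wide (log2 fold change 0.43, SE 0.45, adjusted p = 0.49). An antisense lincRNA, Gm29233, shares 208 of its exon bases (3.42%), and the strand setting of the counting was not given in the sources used here, so reads there cannot be assigned to 1 of the 2 genes.

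Vwf, at chr6:125546774-125686679 on the plus strand, encodes von Willebrand factor of endothelium and platelets. It was at 6.09 and 3.39 CPM in control pancreas and 3.78, 3.32 and 3.66 CPM in OA-AP (log2 fold change -0.41, SE 0.30, adjusted p = 0.327). The adipose libraries held 91.9, 79.9 and 98.5 CPM in the controls and 77.7, 77.9 and 83.7 CPM in OA-AP (log2 fold change -0.18, SE 0.10, adjusted p = 0.212). The groups overlapped in both tissues. Set against the sum of 12 endothelial markers in the same library, Vwf, Thbd and Tfpi differed by -0.29, 0.36 and -0.38 on the log2 scale in the pancreas and by -0.38, -0.08 and -0.27 in adipose tissue, with exact permutation p-values of 0.2 to 1. The endothelial sum itself overlapped between groups, at 127 to 157 CPM and 126 to 155 CPM in control and OA-AP pancreas, and 1784 to 2023 CPM and 1827 to 2726 CPM in adipose tissue.

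F13a1, at chr13:36867178-37050244 on the minus strand, encodes the A chain of factor XIII and is known from tissue macrophages as well as platelets. Adipose levels were 172, 174 and 163 CPM in the controls and 207, 253 and 349 CPM in OA-AP. All OA-AP libraries were above all controls, and F13a1 rose 1.59-fold (log2 0.67, SE 0.19, adjusted p = 0.0283). The call was lost without any 1 control library (adjusted p of 0.076, 0.067 and 0.0899 without libraries 1, 2 and 3), without OA-AP library 3 (0.0544), and when scaled by library totals alone (0.0663).

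In the pancreas F13a1 was at 9.87 and 3.19 CPM in the controls and 10.8, 11.2 and 9.10 CPM in OA-AP, with control library 1 among the OA-AP values (log2 fold change 0.65, SE 0.40, adjusted p = 0.253). Without control library 1 the value was 1.70 (adjusted p = 0.0197). Without control library 2 it was 0.07 (adjusted p = 0.865). Against the sum of 8 resident macrophage markers, the F13a1 ratio was higher by 1.15 on the log2 scale in the pancreas and by 0.49 in adipose tissue, each without overlap and with an exact permutation p of 0.1. That ratio depended on 1 marker, Gas6, which made up much of the pancreas sum (40.6 and 36.5 CPM in the controls) and fell in both tissues, by 1.28 (SE 0.14, adjusted p = 0.000655) and 0.69 (SE 0.21, adjusted p = 0.0387). With Gas6 left out, an alternative chosen after seeing the data, the pancreas difference was 0.32, with overlapping groups (exact permutation p = 0.5). The adipose difference shrank to 0.19, still without overlap (exact permutation p = 0.1). In adipose tissue the markers went both ways, with Mrc1 (log2 1.21, SE 0.22, adjusted p = 0.00688) and Cd163 (0.95, SE 0.19, adjusted p = 0.00823) rising beside F13a1 and Timd4 falling with Gas6, by 1.88 (SE 0.41, adjusted p = 0.0119). In the pancreas Mrc1 and Cd163 had log2 fold changes of 0.83 and 0.93 and were not called (adjusted p of 0.0978 and 0.0806). The 8 markers summed to 55.3 to 74.5 CPM in control and 50.0 to 56.9 CPM in OA-AP pancreas, and to 734 to 945 CPM and 722 to 1055 CPM in adipose tissue. An antisense gene, Gm30489, shares 74 exon bases (1.1%) with F13a1.

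**Figure D3:**
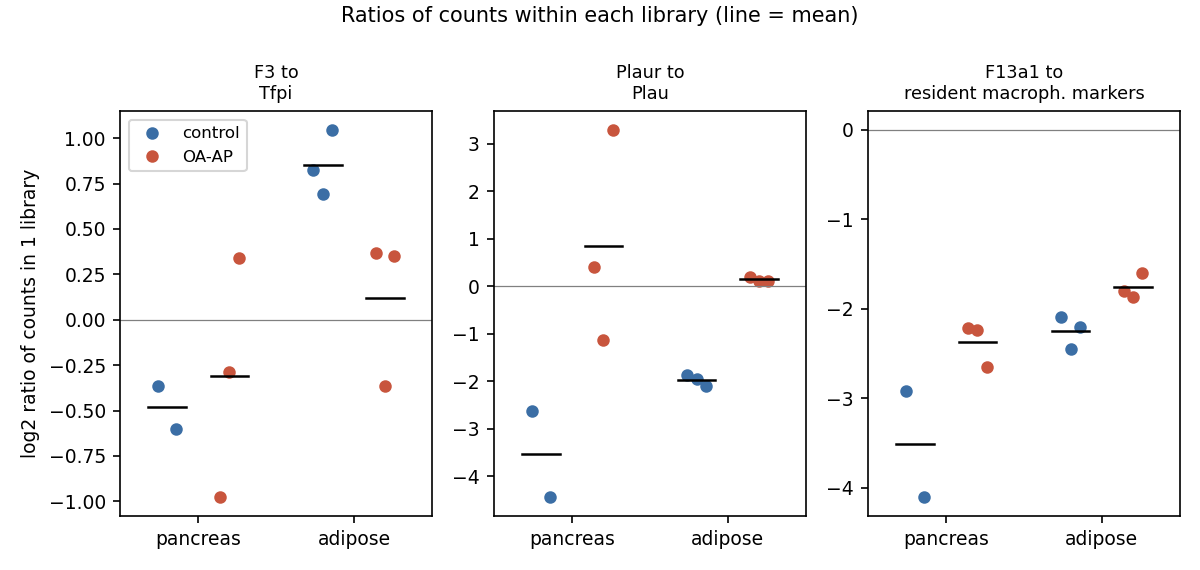
Log2 ratios of counts within each library for F3 to Tfpi, Plaur to Plau and F13a1 to resident macrophage markers, with controls in blue, OA-AP in red and means as black lines. The Plaur to Plau ratio in adipose tissue moved from -1.98 to 0.15 with little spread, whereas F3 to Tfpi overlapped in the pancreas.

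Marker sums of other cell types moved with several of these genes. The neutrophil sum was 2.06 and 2.89 CPM in control pancreas and 16.0, 4.58 and 111 CPM in OA-AP, and 0 of its 8 tested markers were called by edgeR there. OA-AP library 3, the highest in neutrophil markers, was also the highest library for Plaur, Thbs1, Thbd and Plat. In adipose tissue the neutrophil sum was 18.0 to 36.6 CPM in controls and 194 to 226 CPM in OA-AP, and 8 of 9 tested markers rose. Neutrophils are known to carry the urokinase receptor. Their part in the Plaur result was not tested.

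The mesothelial sum of 7 markers was 25.5 and 12.4 CPM in control pancreas and 8.03, 11.9 and 0.994 CPM in OA-AP. It was lowest in OA-AP library 3, where Plau was also lowest but F3 was the highest of the OA-AP libraries (1.46 CPM). In adipose tissue it was 303 to 787 CPM in controls and 159 to 472 CPM in OA-AP, and 1 of 7 markers fell. The fibroblast sum of 8 markers in adipose tissue was 3531 to 4368 CPM in controls and 2100 to 2732 CPM in OA-AP, and 5 of 8 markers fell beside F3. Adipose OA-AP library 2, lowest in F3 (33.8 CPM) and Plau (34.1 CPM), had the lowest mesothelial sum (159 CPM). The same library had the highest fibroblast sum among the OA-AP adipose libraries (2732 CPM). Mesothelial and fibroblast cells are known to make tissue factor, and their part in the F3 and Plau values was not tested.

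The change in OA-AP was then compared between tissues in 1 model over all 11 libraries, asking whether the adipose change differed from the pancreas change. None of the 9 genes was called (0 of 9 by edgeR, 1 of 9 at an unadjusted p under 0.05, and 1 of 9 by DESeq2), against 21.3% of 17046 genes by edgeR, 33.7% of them at an unadjusted p under 0.05, and 15.7% of 28106 genes by DESeq2. That 1 gene was Thbs1 in each case, with an adipose minus pancreas difference of -3.01 (SE 0.96, edgeR adjusted p = 0.052) and a DESeq2 adjusted p of 0.0179. Plaur differed by -1.84 (SE 1.16, adjusted p = 0.306), and F3 by -0.56 (SE 0.36, adjusted p = 0.311). The differences of the other members lay between -0.23 and 0.63. Anxa2, which encodes a surface receptor for plasminogen and tissue plasminogen activator, was called, with a difference of 0.94 (SE 0.30, adjusted p = 0.0433), but was not called with library totals alone (0.0972, adjusted p = 0.858) or in 9 of the 11 fits that left out a library.

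Other regulators of fibrinolysis were taken from a list of 11 genes. In the pancreas 2 of 6 tested were called, beside 29.8% of all genes tested there. These were Vtn and Plgrkt, both lower. Vtn encodes vitronectin, an adhesive protein of plasma and matrix. It was at 46.3 and 41.5 CPM in control and 10.9, 21.1 and 20.7 CPM in OA-AP pancreas, and fell by 1.32 on the log2 scale (SE 0.27, adjusted p = 0.00938). Plgrkt, a plasminogen receptor, fell by 1.30 (SE 0.37, adjusted p = 0.0287).

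In adipose tissue 5 of 7 tested were called, beside 25.1% of all genes tested there. No difference between such shares was tested for this list or those below. Serpinb2, Lrp1 and Anxa2 rose, and Vtn and Plgrkt fell. Serpinb2, which encodes a serpin that blocks urokinase, was at 2.14, 4.15 and 1.67 CPM in the controls and 29.0, 73.4 and 27.6 CPM in OA-AP (log2 4.04, SE 0.54, adjusted p = 0.0026), and it shares 12.4% of its exon bases with Serpinb10 on the same strand. Lrp1, which encodes an endocytic receptor that clears many protease complexes, was at 686, 752 and 853 CPM in the controls and 1773, 1167 and 1655 CPM in OA-AP (log2 1.00, SE 0.19, adjusted p = 0.0072). Vtn fell by 1.48 (SE 0.13, adjusted p = 0.000537) and Plgrkt by 0.67 (SE 0.12, adjusted p = 0.00651). Both lay lower in every OA-AP library of both tissues. Without adipose OA-AP library 1, Plgrkt fell below the 1.5-fold threshold (-0.57). The pancreas values of Vtn and Plgrkt were -0.64 and -0.58, and not called, when scaled by library totals alone.

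Of 17 coagulation factor genes, 7 were tested in each tissue. In the pancreas Kng2, F2, Fga and Fgg rose and Lman1 fell, 5 of the 7 tested, beside 29.8% of all genes tested there. The F2 call was near the threshold (log2 1.07, SE 0.35, edgeR adjusted p = 0.0467), and its value under the alternatives was not recorded. Kng2, a kininogen gene, was at 0.858 and 0.598 CPM in controls and 11.1, 13.9 and 6.96 CPM in OA-AP (log2 3.84, SE 0.42, adjusted p = 0.000597). With 10 and 6 control counts, Kng2 passed the filter on low counts through the OA-AP libraries alone and could only be called as a rise. Fga and Fgg, which encode fibrinogen chains, had 1 and 0 counts over the control libraries and 121 and 98 over the OA-AP libraries. Both passed the filter on low counts through the OA-AP libraries alone, so each could only be called as a rise. The scaled ratio for Fga was 47.2 with a 95% counting interval of 8.30 to 1877, and Fgg was at least 6.21-fold higher against 3 counts per library. Lman1, which encodes a cargo receptor that carries factors V and VIII out of the endoplasmic reticulum, was at 124 and 130 CPM in controls and 43.9, 45.7 and 44.8 CPM in OA-AP (log2 fold change -1.51, SE 0.12, adjusted p = 0.000163).

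In adipose tissue F10, Mcfd2 and Lman1 rose and F5 fell, 4 of the 7 tested, beside 25.1% of all genes tested there. F10, which encodes factor X, was at 2.84, 3.77 and 2.59 CPM in the controls and 19.4, 11 and 19.1 CPM in OA-AP (log2 2.43, SE 0.27, adjusted p = 0.00122). F5, which encodes factor V, was at 6.72, 11.9 and 8.75 CPM in the controls and 4.25, 3.46 and 3.84 CPM in OA-AP (log2 fold change -1.24, SE 0.24, adjusted p = 0.00723). Lman1 and its partner Mcfd2 rose by 0.60 and 0.69 on the log2 scale, and both were below the 1.5-fold threshold when scaled by library totals alone, as was Lman1 with either other filter on low counts (0.58 each) and without OA-AP library 3 (0.45). Without control library 1 the adjusted p of Lman1 was 0.0538. Lman1 was thus called lower in the pancreas and higher in adipose tissue, and the tissue by condition test gave an adipose minus pancreas difference of 2.09 (SE 0.19, adjusted p = 4.87e-05).

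Among 11 anticoagulant genes, 2 of 4 tested were called in the pancreas, both higher, beside 29.8% of all genes tested there. Procr, which encodes the endothelial protein C receptor, was at 4.46 and 2.99 CPM in controls and 71.5, 57.3 and 134 CPM in OA-AP, a 23.3-fold rise (log2 4.54, SE 0.49, adjusted p = 0.00144). Serpina10, which encodes the protein Z-dependent inhibitor of factor X, rose by 1.23 (SE 0.30, adjusted p = 0.016). In adipose tissue Procr was at 19.5, 19.4 and 23.8 CPM in controls and 30.0, 32.1 and 21.8 CPM in OA-AP, overlapping and not called (log2 fold change 0.42, SE 0.17, adjusted p = 0.084). The Procr changes differed between the tissues by -4.13 (SE 0.50, adjusted p = 0.000341). In adipose tissue 2 of 6 tested were called, beside 25.1% of all genes tested there. Tfpi2, a relative of Tfpi, rose by 2.58 (SE 0.34, adjusted p = 0.00206), and Pros1, which encodes protein S, rose by 0.93 (SE 0.16, adjusted p = 0.00491).

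Of 18 protease-activated receptor and platelet genes, 2 of 7 tested were called in the pancreas, beside 29.8% of all genes tested there. F2rl1, a protease-activated receptor, rose by 1.65 (SE 0.40, adjusted p = 0.016), and Itgb3, an integrin chain of platelets and other cells, had 6 control and 94 OA-AP counts (scaled ratio 6.10, 95% counting interval 2.70 to 17.1, adjusted p = 0.0118). F2rl1 had 9 counts in each control library. Both genes passed the filter on low counts through the OA-AP libraries alone, so each could only be called as a rise. In adipose tissue 6 of 13 tested were called, 4 higher and 2 lower, beside 25.1% of all genes tested there. Erythrocyte markers, a sign of blood in the tissue, were set beside these genes. Of 5 such markers 2 rose, Hba-a1 (1.86-fold, adjusted p = 0.0307) and Hbb-bs (1.89-fold, adjusted p = 0.032), with a median log2 fold change of 0.69, and their sum overlapped between groups at 406 to 558 CPM in controls and 545 to 1008 CPM in OA-AP. Their part in the platelet gene values was not tested. Among the platelet genes not called there, Pf4 and Gp1bb had log2 fold changes of 0.52 and 0.40. Those of Gp1ba and Clec1b were -0.31 and -0.50. Gp1bb shares 91.1% of its exon bases with Sept5 on the same strand, so reads there cannot be assigned to 1 of the 2 genes. Selp, which encodes P-selectin of platelets and endothelium, was at 8.30, 9.91 and 9.33 CPM in controls and 77.3, 36.6 and 59.4 CPM in OA-AP (log2 2.65, SE 0.27, adjusted p = 0.00114). Ppbp, a platelet chemokine, rose by 3.26 (SE 0.38, adjusted p = 0.0016). P2ry12, the platelet receptor for adenosine diphosphate, fell by 1.56 (SE 0.30, adjusted p = 0.00727), and F2rl1 fell by 1.31 (SE 0.32, adjusted p = 0.0188). F2rl1 was thus called in opposite directions in the 2 tissues, though only a rise could be called in the pancreas. Its tissue by condition difference was -2.97 (SE 0.53, adjusted p = 0.00231). The adipose call of F2rl1 was lost without control library 2 (adjusted p = 0.0526). The pancreas calls of Vtn, Plgrkt, Fga, Fgg, Serpina10, Itgb3 and F2rl1 were each lost when either control library was left out, whereas those of Procr, Kng2 and Lman1 were kept. A lone control remained in these fits, and a smaller share of all genes was called too. The calls of Plgrkt and Serpina10 were also lost without OA-AP library 1 (adjusted p of 0.0888 and 0.0665). The exons of Selp, F5 and Fgg overlap antisense lincRNAs, and their counts carry the same strand limit as Thbs1.

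**Figure D4:**
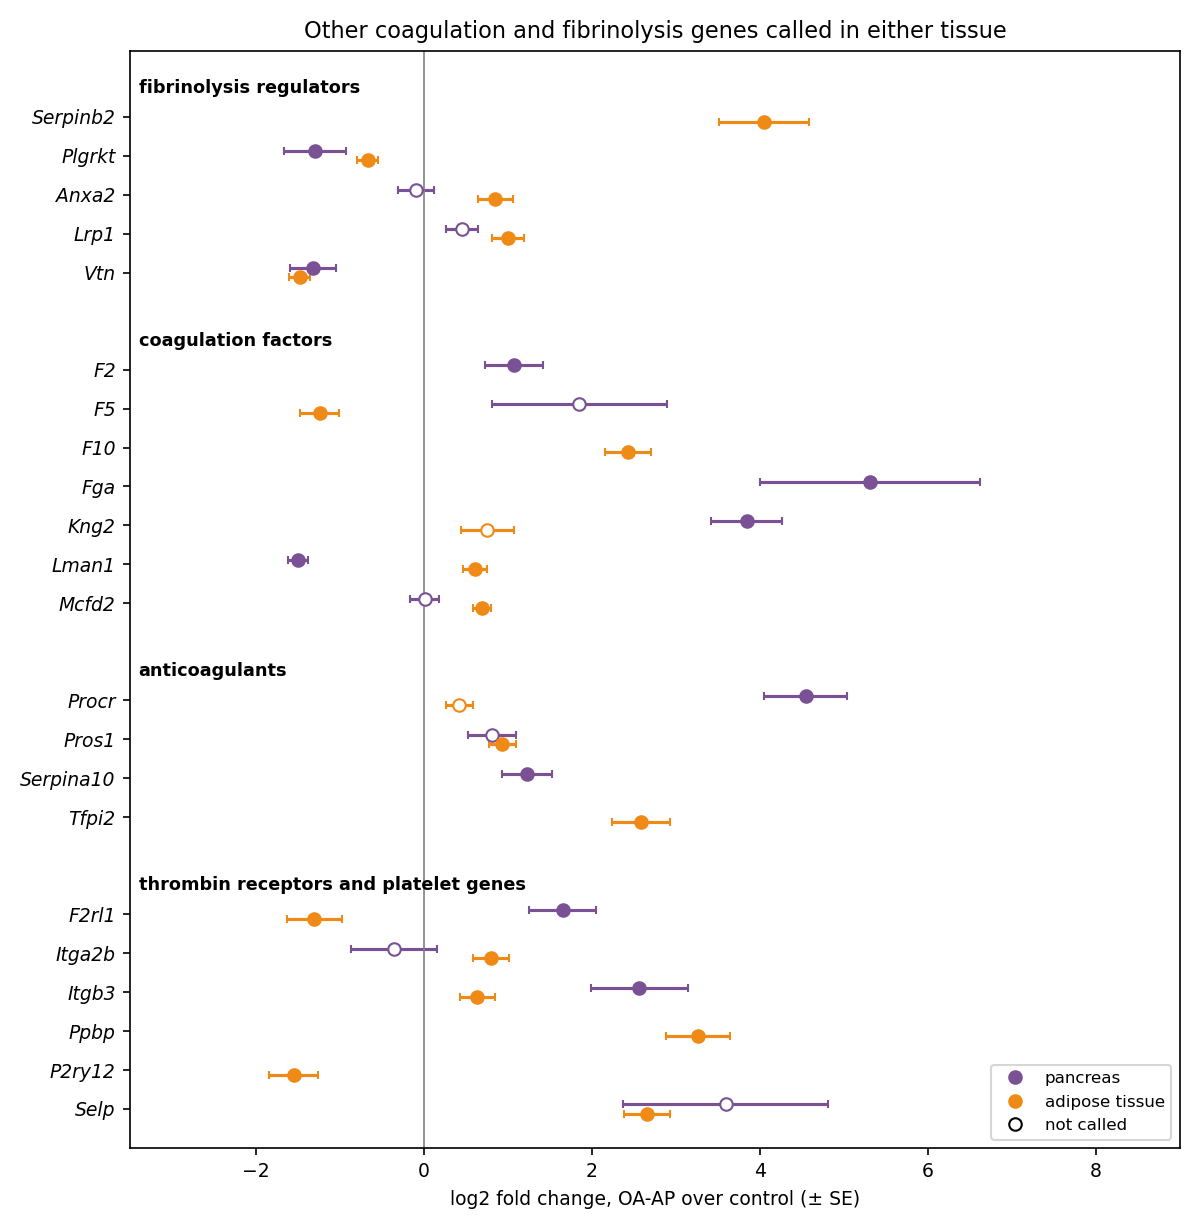
Log2 fold change with its SE of the other listed genes called in either tissue, in the pancreas (purple) and adipose tissue (orange), open where not called and grouped by role. Fgg is left out because it had no control counts in the pancreas. Vtn and Plgrkt are filled to the left of 0 in both tissues, and Lman1 and F2rl1 lie on opposite sides. The heading thrombin receptors stands for all listed protease-activated receptors, which are not all receptors of thrombin.

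The genes whose levels most resembled each member over the 11 libraries, among 8063 genes, were dominated by the difference between tissues that all these genes share, and are given as a description. Arhgap45 and Rnf144a were closest to F3 (Pearson r of log2 CPM 0.994 and 0.992), Ahnak and Gsn to Tfpi (0.997 each), Selenon and Pdzd2 to Thbd (0.983 and 0.98), and Apcdd1 and Fn1 to Vwf (0.995 and 0.994). Ywhaz and Nsfl1c were closest to Plaur (0.981 and 0.979), D2hgdh and Eci1 to Plau (0.982 and 0.98), and Taf3 and Ackr3 to Plat (0.952 and 0.94). Arhgef12 and Flii were closest to Thbs1 (0.967 each), and Ipo11 and Itgam to F13a1 (0.989 and 0.986).

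The calls were repeated with other scaling, filters, tools and sets of libraries. F3 and Plaur in adipose tissue were called under every alternative in which they were tested, and the adipose values of F3 lay between -0.92 and -0.59 and those of Plaur between 1.55 and 1.87.

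**Figure D5:**
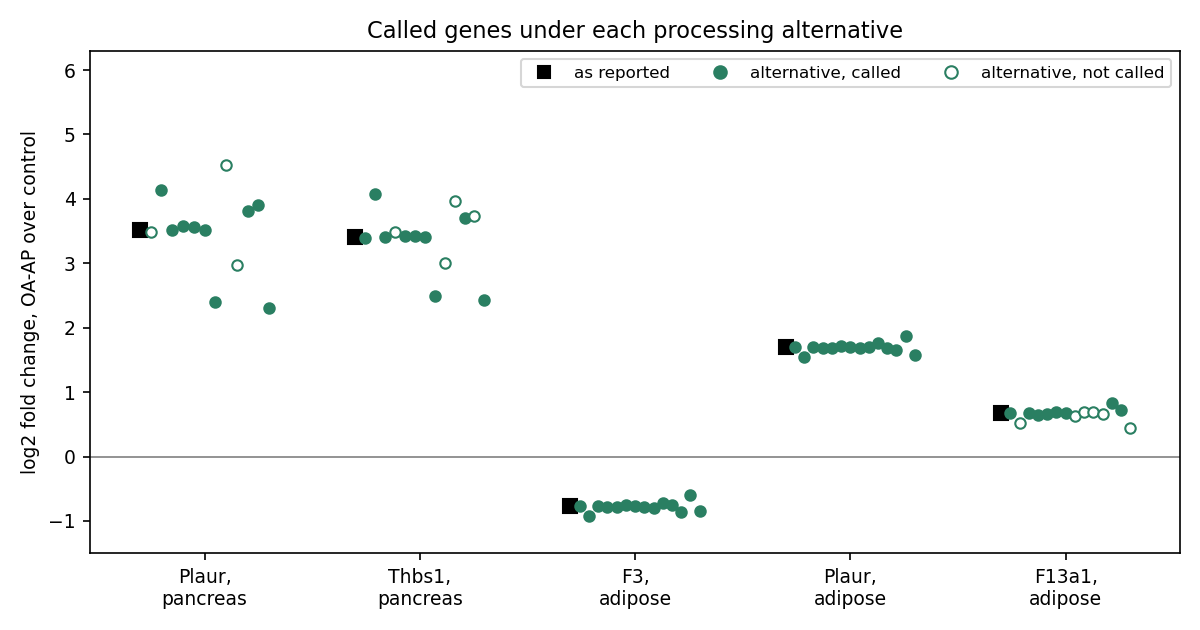
Log2 fold change of each called gene as reported (black squares) and under each alternative (green circles, open where the call was lost). Plaur and Thbs1 in the pancreas and F13a1 in adipose tissue have open circles, whereas F3 and Plaur in adipose tissue have none.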

How the data were processed

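RNA sequencing libraries (NEBNext Ultra kit, paired-end reads) were made by the authors from pancreas and epididymal adipose tissue. Per the labels and methods, the authors trimmed reads with Trim Galore 0.6.6 and fastp 0.20.1, mapped to GRCm38 with STAR and obtained gene counts from featureCounts 2.0.1. The strand setting and the annotation release were not given in the sources used here. The deposited values are whole-number counts per gene, with 1 table per tissue, and the deposited gene length in bases was used for CPM per kilobase. No library treated with Chaiqin chengqi decoction was analysed here.

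Counts were tested per tissue with edgeR 4.0.16 (filterByExpr, TMM scaling, robust quasi-likelihood fit) in R 4.3.3, with Benjamini-Hochberg adjustment over all genes tested. Genes with few control counts, such as Plaur, Fga, Fgg, Itgb3, F2rl1 and Kng2 in the pancreas, passed this filter through the OA-AP libraries alone. Such genes could only be called as rises. The tissue by condition term was tested in 1 fit over the 11 libraries. Each SE was obtained by dividing the absolute log2 fold change by the root of the F statistic. The script was tested on simulated data. Ratios within a library had 0.5 counts added and were compared by a two-sided exact permutation test. With 2 or 3 libraries per group precision is limited, and counting intervals cover counting error only. No library pair of a group agreed within sampling noise (chi-square per degree of freedom of at least 7.56). Deviations of libraries with the same replicate number correlated between -0.163 and 0.09, and those with different numbers between -0.25 and 0.293. These values cannot decide whether a pancreas and an adipose library came from the same mouse. The deviations of 2 pancreas controls mirror each other, and 2 tissues of a mouse need not deviate alike. The tissue by condition fit treated all libraries as independent. DESeq2 1.42.0, other scalings, filters, a replicate block and leaving out each library were alternatives.

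The members and gene lists were chosen with earlier results of these data known. Named genes are the 9 members, up to 4 called genes per other list and tissue with the smallest p, and the 2 genes most like each member in log2 CPM. Other called genes of a list are named where counts of 5 or fewer are itemised or where they differ between tissues, chosen after their values were seen. Some listed genes that were not called are named too, also chosen after their values were seen. A planned gene and its ratio are not reported here.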

Additional observations from a re-analysis of the deposited data

Results flagged for a closer look

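The difference between the tissues in the change with OA-AP (adipose change minus pancreas change, log2 scale) was called in 0 of the 9 genes and in 10 of the 41 tested among the 57 other clotting genes, against 21.3% of 17046 genes (edgeR's quasi-likelihood test of the tissue by condition term, Benjamini-Hochberg adjusted p below 0.05). The difference was positive for Lman1 (2.09, SE 0.19, adjusted p = 4.87e-05), Anxa2 (0.94, SE 0.30, adjusted p = 0.0433) and Mcfd2 (0.67, SE 0.21, adjusted p = 0.0393), and for Tfpi2 (2.81, SE 0.92, adjusted p = 0.0495), which was not tested within the pancreas. It was negative for Procr (-4.13, SE 0.50, adjusted p = 0.000341), F2rl1 (-2.97, SE 0.53, adjusted p = 0.00231), Kng2 (-3.11, SE 0.56, adjusted p = 0.00244), F5 (-3.13, SE 0.93, adjusted p = 0.0328) and Itgb3 (-1.96, SE 0.59, adjusted p = 0.0357). For Serpind1 the fitted difference was 10.27 (SE 1.66, adjusted p = 0.00222). That size depends on the prior count of the fit, because the 3 OA-AP pancreas libraries held no Serpind1 counts. Serpind1 passed the filter on low counts of this fit through the control pancreas libraries alone, from 13 and 9 counts. It could therefore only be called with a positive difference, and its calls under the alternatives rest on the same counts. The differences of Lman1, Procr, F2rl1, Kng2 and Serpind1 kept their sign and call under every alternative that gave a value, with adjusted p no higher than 0.0344. Those of Anxa2, Mcfd2, Tfpi2, F5 and Itgb3 were lost under several, with adjusted p up to 0.858, 0.481, 0.32, 0.136 and 0.154.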

How the results depend on the processing

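Calls depended mainly on single libraries. Of the 9 genes, 0 to 2 were called in the pancreas when each library was left out, 2 to 3 in adipose tissue, and 0 to 2 for the tissue by condition term. When a pancreas control was left out, the lone control was assumed to vary like the other libraries. A smaller share of all genes was called in those fits too, so lost calls there are not particular to these genes. In the pancreas 1 of the 9 was called with DESeq2 size factors and 1 with at least 10 counts in every sample. The other pancreas lists gave 0 to 2 (fibrinolysis regulators), 2 to 5 (coagulation factors), 1 to 3 (anticoagulants) and 0 to 4 (platelet genes) calls without single libraries, and with library totals alone 3 fibrinolysis regulators were called, 3 higher and 0 lower. The platelet list gave 4 with library totals alone, with DESeq2 and with the replicate block. Of all pancreas genes, these settings called 49.3%, 15.2% and 31.8%, against 29.8% as reported. DESeq2 covered more genes (23571 against 12884), so counts under different settings are not directly comparable. For the tissue by condition term, 2 genes (Thbs1 and F3) were called with library totals alone, 1 (Thbs1) with at least 10 counts and 1 (Thbs1) with DESeq2. Thbs1 was also called without pancreas OA-AP library 1 (adjusted p = 0.0381) or 2 (0.0334) or adipose control library 1 (0.0346), and Plau without pancreas OA-AP library 2 (0.0427).

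Scaling by library totals alone moved the median of all tested genes from 0.04 to 0.75 in the pancreas and from -0.01 to -0.17 in adipose tissue. In the pancreas it turned F3 to 0.47, Tfpi to 0.31 and Vwf to 0.28, all below that median, and gave F13a1 a call (1.33, adjusted p = 0.0499). In adipose tissue it turned Plat to -0.0102. Tissue by condition differences became -0.24 for Plau, -0.80 for Plat, -0.51 for Tfpi, -0.60 for Vwf and -0.81 for F13a1. With at least 10 counts those of Plat and F13a1 were -0.0168 and -0.00679. None of these was called.

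The replicate block, which in the pancreas used replicates 1 and 2 alone, turned Plat to -0.27 and Thbd to -0.16 there, and left Plaur at 2.40 (adjusted p = 0.00222) and Thbs1 at 2.50 (3.7e-05). In adipose tissue the block ended the F13a1 call (0.64, adjusted p = 0.0532) and that of F2rl1 (-1.29, 0.0556), and left 3 platelet genes called. For the tissue by condition term the block within each tissue gave 0.29 for Thbd and -0.21 for F13a1, and the block within each group gave -0.18 for F13a1. The block changed no other call of a member. Both block fits ended the tissue by condition calls of F5, Itgb3 and Tfpi2 (adjusted p of 0.0609 to 0.136), and the block within each group also ended those of Anxa2 (0.127) and Mcfd2 (0.0819).

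Leaving out single libraries turned the sign of values that were not called. The ranges were -0.76 to 0.0875 for Vwf, -0.40 to 1.06 for Plat and -0.24 to 0.81 for Thbd in the pancreas, and -0.14 to 0.0724 for Tfpi, -0.0564 to 0.40 for Plat and -0.0833 to 0.40 for Thbd in adipose tissue. For the tissue by condition term they were -0.95 to 0.54 for Plat, -0.28 to 0.59 for Vwf, -1.05 to 0.60 for F13a1 and -0.65 to 0.36 for Thbd. In the pancreas the log2 ratio difference of Vwf to endothelial markers ranged from -0.85 to 0.28 and that of F13a1 to resident macrophage markers from 0.55 to 1.74. With Gas6 left out of these markers, chosen after seeing the data, the F13a1 ratio differences were 0.32 (pancreas) and 0.19 (adipose). The cause of these moves was not tested. With library totals alone the tissue by condition difference of Mcfd2 turned to -0.17 (adjusted p = 0.481), and those of Anxa2 (0.0972, 0.858) and Tfpi2 (2.00, 0.0982) were no longer called. Of 1071 values recomputed for all results, 40 turned sign. Control levels of Plaur and F3 in the pancreas rest on 2 to 17 counts per library, which limits their precision.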

Other observations

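Several clotting genes known from the liver were at or near 0 counts in both tissues. In the pancreas Plg, F11, F12 and F13b had no counts in any library, and in adipose tissue F13b had none. These genes were not tested. Serpind1, which encodes heparin cofactor II, was at 1.12 and 0.897 CPM in control pancreas and had no counts in the 3 OA-AP libraries. It did not pass the filter on low counts within either tissue and was not tested there. This gene was chosen after its values were seen.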
